A study of Mus musculus with 12 samples.

Results

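Transcripts of 8 genes that are best known from the kidney, Umod, Kap, Klk1, Cdh16, Slc34a1, Miox, Fxyd2 and Aqp2, were followed through RNA-seq libraries of the newborn mouse retina. They were found by their symbols among the 38720 genes of both deposited tables, and were chosen by their mKO against WT values in these same tables, where they are lower or missing in mKO, so their differences between genotypes are given as a description and were not tested. The libraries came from P0 pups (postnatal day 0, C57/BL6 by the labels) that were either wild type (WT) or mKO, that is, Math5-Cre;Ezh2 flox/flox mice in which Cre is driven from the Math5 locus and removes the loxP-flanked exons of the SET domain of Ezh2, the histone H3 lysine 27 methyltransferase. Math5 is switched on in precursors of retinal ganglion cells (RGCs), and Math5-Cre labels only a part of RGCs and few other retinal cells, so mKO retinas are mosaics. Retinas were dissociated with papain, RGCs were pulled out with magnetic beads against CD90 (Thy-1), and the remaining cells were kept as non-RGCs. Each genotype and fraction had 3 libraries, 12 in all, prepared from poly-A RNA of independent extractions and sequenced together in a single lane. The labels call the control pups wild type, whereas the control that the study generally used was the floxed littermate without Cre. Whether pups were pooled is not stated in the sources used here. Each of the 12 libraries held at least 191 reads of both Xist, expressed in females, and the Y-linked Ddx3y, so each mixed RNA of both sexes.

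The kidney filters blood in its glomeruli and then recovers most of the filtrate along the tubule. Cells of the proximal tubule take back phosphate, glucose and amino acids and make new glucose, the thick ascending limb of the loop of Henle reabsorbs salt, and principal cells of the collecting duct reabsorb water under the control of vasopressin. Each segment has transcripts of its own, and several of those followed here are among the most abundant messages of the mature kidney. Much of the gene programme of tubule cells lies under transcription factors of the HNF1 family, which bind DNA built around the half-site GTTAAT.

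The deposited tables give a mean per genotype, and the whole reads of each library were recovered from the digits of these means. Within each group they are called A, B and C by falling depth, since none can be tied to a replicate number. The depth was 10600964 to 13014004 reads on genes in the 6 RGC libraries and 7139633 to 12828281 in the 6 non-RGC libraries, and levels are given per 1000000 reads on genes (RPM). The kidney transcripts had at most 55 reads in a library, so counting error weighs heavily, and 0 reads in the 3 libraries of a group allow for up to 3 reads over that group. Ratios to such a floor allow for counting error of the mKO reads only and take the WT reads as counted. They are therefore less strict than the lower end of an interval. The intervals of ratios and shares take in counting error of the pooled reads and no other. Floors and intervals leave out the spread between libraries, and any PCR copies left by the removal of duplicates that the file labels name. Summed levels of 12 RGC markers were 2059 to 2766 RPM in the RGC libraries and 512.5 to 814 in the non-RGC libraries, so the fractions carried the markers of their labels. WT RGC library C stood apart with 2082 RPM of 10 progenitor markers, against 1325 to 1394 in the other 5 RGC libraries, and genes of mesenchyme ranged from 33.8 to 1285 RPM among the WT RGC libraries. Ezh2, the targeted gene, had 1552, 1601 and 1533 reads in mKO RGCs and 1174, 1111 and 1438 in WT RGCs. These counts cover the whole gene, most of which the deletion leaves in place, and so do not check the genotype. The paper reported less Ezh2 in P0 mKO RGCs by qPCR and Western blot, and treated its RNA-seq value as a fall. The reads recovered here show no fall of Ezh2 in mKO RGCs.

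RefSeq promoters (GRCm38.p6, the build that mm10 names) were matched for 6 of the 8 genes. The 3 that hold the HNF1 half-site GTTAAT, or ATTAAC on the opposite strand, are shown because HNF1 factors act in the tubule cells that express these genes in the kidney. They run 5′ to 3′ up to the gene start, without bases that GENCODE places in an exon of the gene, and capitals mark the half-site. In Umod it begins 202 bases before the RefSeq start, in Slc34a1 89 and 61 bases, and in Miox 142 bases.
Umod (chr7:119479283-119479512, minus strand): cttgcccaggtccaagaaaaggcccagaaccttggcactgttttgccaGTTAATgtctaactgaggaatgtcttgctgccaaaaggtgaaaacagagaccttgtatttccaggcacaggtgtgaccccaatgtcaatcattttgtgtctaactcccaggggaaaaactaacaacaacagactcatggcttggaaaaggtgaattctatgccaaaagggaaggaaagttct
Slc34a1 (chr13:55399398-55399647, plus strand): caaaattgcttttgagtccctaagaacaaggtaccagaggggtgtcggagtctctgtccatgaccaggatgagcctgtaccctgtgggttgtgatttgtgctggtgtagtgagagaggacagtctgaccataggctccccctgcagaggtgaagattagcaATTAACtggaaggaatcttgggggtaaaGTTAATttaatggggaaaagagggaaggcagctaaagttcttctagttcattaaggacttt
Miox (chr15:89334223-89334397, plus strand): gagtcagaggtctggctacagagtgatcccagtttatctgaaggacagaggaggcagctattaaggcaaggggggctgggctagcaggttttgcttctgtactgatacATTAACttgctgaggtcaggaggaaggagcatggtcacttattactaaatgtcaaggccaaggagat
The Slc34a1 window lies in an intron of longer transcripts that GENCODE draws for the gene. Of all 32851 RefSeq promoters, 2113 (6.43%) held either word in their 250 bases before the start. The matches are descriptions and not binding sites.

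Umod (ENSMUSG00000030963, chromosome 7, 119462711 to 119479282) encodes uromodulin, the main protein of normal urine, which is made in the thick ascending limb. It had 28, 35 and 34 reads in WT RGC libraries A, B and C, and 0, 2 and 0 reads in mKO RGC libraries A, B and C. In non-RGCs it had 32, 32 and 30 reads in the WT and 1, 0 and 0 reads in the mKO libraries. The 6 WT libraries thus held nearly the same number of reads in either fraction, and none of the 6 mKO libraries held more than 2. Pooled over libraries and divided by the size factors, the level in WT was 57.8-fold that in mKO RGCs (exact 95% counting interval 15.6 to 484, 97 against 2 reads) and 92.4-fold that in mKO non-RGCs (16.2 to 3689, 94 against 1). The level of Umod in RPM was 2.71 ± 0.0838 (SD, n = 3) in WT non-RGCs and 2.83 ± 0.492 (SD, n = 3) in WT RGCs. In these bulk samples fewer cells of a type and less RNA per cell cannot be told apart. Whether the kidney reads of the WT libraries came from cells of the retina or from RNA of another tissue was not tested, and the sources used here do not say which tissues were handled beside the WT samples.

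Of 3 genes of the proximal tubule, Kap and Slc34a1 had at most 1 read in each mKO library, and so did Miox in RGCs but not in non-RGCs. Kap (ENSMUSG00000032758, chromosome 6, 133849851 to 133853762), the kidney androgen-regulated protein, had 5, 19 and 12 reads in WT RGCs and 1, 0 and 0 in mKO RGCs. In non-RGCs Kap had 20, 10 and 11 reads in the WT and 0, 1 and 0 in the mKO libraries. Kap varied most among the WT RGC libraries, from 0.406 to 1.63 RPM, yet its lowest WT library lay above every mKO library in both fractions. The WT to mKO ratio of Kap was 42.9 in RGCs (7.22 to 1740, 36 against 1 read) and 40.3 in non-RGCs (6.84 to 1630, 41 against 1).

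Slc34a1 (ENSMUSG00000021490, chromosome 13, 55398187 to 55415592), the sodium-phosphate cotransporter of the brush border, had 10, 8 and 11 reads in WT RGCs and 1, 0 and 1 in mKO RGCs. In non-RGCs it had 10, 11 and 5 reads in the WT and 0, 1 and 0 in the mKO libraries. The genotypes did not overlap in either fraction. The ratio was 17.3 in RGCs (4.37 to 149, 29 against 2 reads) and 25.6 in non-RGCs (4.20 to 1048, 26 against 1).

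Miox (ENSMUSG00000022613, chromosome 15, 89334398 to 89337015) encodes myo-inositol oxygenase, which starts the breakdown of inositol in proximal tubule cells. It had 6, 6 and 5 reads in WT RGCs and 0, 0 and 1 in mKO RGCs, a ratio of 20.3 (3.17 to 846, 17 against 1 read). In non-RGCs Miox had 11, 8 and 4 reads in the WT and 2, 3 and 4 in the mKO libraries, a ratio of 2.51 (1.12 to 6.17, 23 against 9). Here the genotypes overlapped, since mKO library C at 5.65 normalized reads (reads divided by the size factor) lay above WT library C at 4.17. Miox in non-RGCs was the only case of the 16 pairs of gene and fraction in which the libraries of the genotypes overlapped.

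Klk1 (ENSMUSG00000063903, chromosome 7, 44225360 to 44229618) encodes tissue kallikrein, a serine protease that the kidney makes in its distal segments. It had 7, 8 and 8 reads in WT RGCs against 0, 0 and 1 in mKO RGCs, and 12, 10 and 7 in WT non-RGCs against 0, 1 and 0 in mKO non-RGCs. Every WT library held at least 7 reads of Klk1 and no mKO library more than 1, with ratios of 27.4 (4.45 to 1129, 23 against 1 read) in RGCs and 28.5 (4.73 to 1164, 29 against 1) in non-RGCs. The Klk1b genes, close paralogues of Klk1 that could share its reads, were listed with reads in 4 of 13 cases, with 6 reads in all in mKO and 5 in WT libraries and never over 2 in a library. Klk1 overlaps Gm10109, Umod overlaps Gm44588 and Slc34a1 overlaps Pfn3, each on the opposite strand. The counting is not stated to use strand, so reads within those overlaps cannot be told apart. Gm10109 had 4, 10 and 9 reads in mKO and 14, 8 and 1 in WT RGCs, and 4, 4 and 1 in mKO and 0, 2 and 3 in WT non-RGCs. Pfn3 had 2, 11 and 8 reads in mKO and 6, 4 and 3 in WT RGCs, and 0 in all non-RGC libraries.

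Cdh16 (ENSMUSG00000031881, chromosome 8, 104601911 to 104624396) encodes the kidney-specific cadherin, an adhesion protein on the side membranes of tubule cells. Its reads were 13, 9 and 13 in WT RGCs and 1, 1 and 0 in mKO RGCs, a ratio of 20.8 (5.36 to 179, 35 against 2 reads). In WT non-RGCs it had 11, 13 and 11 reads and in mKO non-RGCs 0, 0 and 0. The WT level was 11.5-fold a floor of 3 mKO reads over the group. The 6 WT libraries again lay close together, between 0.771 and 1.23 RPM.

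Aqp2 (ENSMUSG00000023013, chromosome 15, 99579055 to 99584547), the vasopressin-regulated water channel of the collecting duct, had the lowest level in RPM in both WT fractions. It had 4, 5 and 3 reads in WT RGCs and 1, 5 and 5 in WT non-RGCs. No read of Aqp2 was found in any of the 6 mKO libraries. The WT level was 4.76-fold a floor of 3 mKO reads over the group in RGCs, and 3.605-fold in non-RGCs.

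Fxyd2 (ENSMUSG00000059412, chromosome 9, 45399669 to 45410278), the gamma subunit of the sodium pump, did not follow the others. It had 53, 55 and 38 reads in WT RGCs and still 34, 32 and 27 in mKO RGCs, a ratio of 1.87 (1.43 to 2.45, 146 against 93 reads). In non-RGCs it had 18, 19 and 18 reads in the WT and 5, 5 and 2 in the mKO libraries, a ratio of 4.51 (2.38 to 9.25, 55 against 12). Each mKO library lay below each WT library in both fractions, but mKO RGCs kept 2.46 ± 0.240 RPM (SD, n = 3), more than the 1.59 ± 0.0952 (SD, n = 3) of WT non-RGCs. Fxyd6, another gene of the family, had 1124 to 1825 reads in all 12 libraries.

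**Figure D1:**
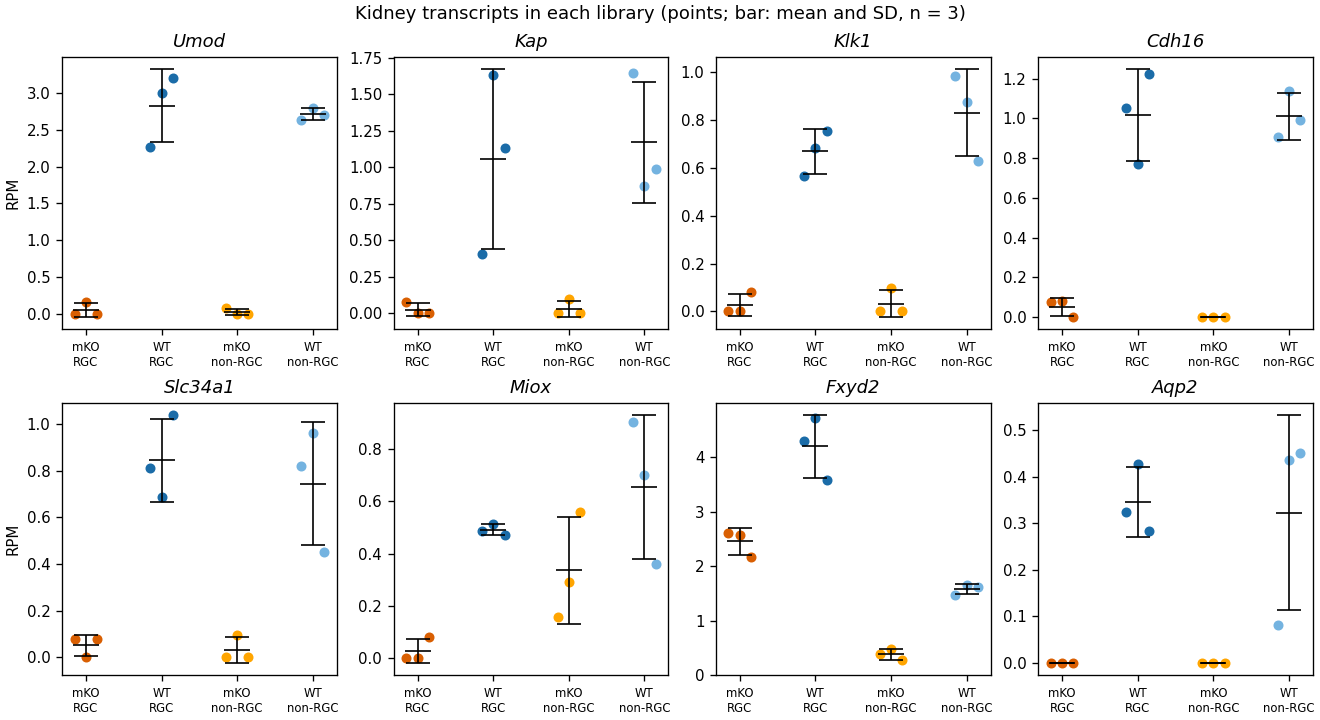
RPM (reads per 1000000 reads on genes, y axis, linear, a scale of its own in each panel) of the 8 kidney transcripts in each of the 12 libraries (points) with the mean and SD of the 3 libraries of a group (bars). Within each fraction the WT libraries lie above the mKO libraries in every panel except for Miox in non-RGCs, and only Fxyd2 keeps over 2 RPM in mKO RGCs.

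Counted over the genes, all 3 mKO libraries lay under all 3 WT libraries for 8 of 8 genes in RGCs and 7 of 8 in non-RGCs. This holds for 18% of the 26516 genes with a read in RGCs and 12.5% of the 25379 in non-RGCs, but it is what the genes were picked for and nothing is read from it. The values nearest the edge of the choice were those of Fxyd2 in RGCs and Miox in non-RGCs.

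The summed level of the 7 genes other than Fxyd2 differed between the WT fractions by less than the spread between libraries. It was 5.92, 7.71 and 8.11 RPM in WT RGC libraries A, B and C (7.25 ± 1.17, SD, n = 3) and 7.98, 7.78 and 6.58 in the WT non-RGC libraries (7.45 ± 0.760, SD, n = 3). In mKO it was 0.231, 0.241 and 0.242 RPM in RGCs and 0.234, 0.583 and 0.560 in non-RGCs. In reads, these were 3 in each mKO RGC library and 3, 6 and 4 in the mKO non-RGC libraries, 9 of the latter 13 being Miox. By contrast, 12 RGC markers differed several-fold between the WT fractions, from 2619 to 2766 RPM in RGCs against 512.5 to 539 in non-RGCs. The fractions were normalized in separate tables, so no test was run across them.

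Over all 8 genes the WT fractions did not overlap, with 10.2 to 12.4 RPM in RGCs (11.4 ± 1.13, SD, n = 3) and 8.20 to 9.46 in non-RGCs (9.03 ± 0.724, SD, n = 3), since Fxyd2 was higher in WT RGCs.

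The WT minus mKO difference of group means was set side by side for the fractions. In RPM it was 2.77 ± 0.289 (standard error, 3 against 3 libraries) in RGCs and 2.69 ± 0.0549 in non-RGCs for Umod, 0.965 ± 0.135 and 1.01 ± 0.0678 for Cdh16, and 0.345 ± 0.0433 and 0.323 ± 0.121 for Aqp2. For Klk1 it was 0.642 ± 0.0608 in RGCs and 0.798 ± 0.110 in non-RGCs, and for Miox it was 0.464 ± 0.0297 and 0.319 ± 0.198. For Fxyd2, whose levels in mKO differed most between the fractions, the difference was 1.74 ± 0.358 in RGCs and 1.20 ± 0.0810 in non-RGCs. Fxyd2 thus stood out by the level that mKO RGCs kept, more than by the size of the difference.

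The make-up of the 7 transcripts was similar in the WT fractions. Umod took 39.0% (exact 95% interval 32.9 to 45.3) of the 249 reads in WT RGCs and 36.3% (30.4 to 42.5) of the 259 reads in WT non-RGCs. Kap took 14.5% (10.3 to 19.4) and 15.8% (11.6 to 20.9), and Cdh16 took 14.1% (9.99 to 19.0) and 13.5% (9.60 to 18.3). The shares of Slc34a1 were 11.6% (7.94 to 16.3) and 10.04% (6.66 to 14.4), and those of Klk1 were 9.24% (5.95 to 13.5) and 11.2% (7.63 to 15.7). Miox held 6.83% (4.03 to 10.7) and 8.88% (5.71 to 13.0), and Aqp2 held 4.82% (2.51 to 8.27) and 4.25% (2.14 to 7.47). The intervals of the fractions overlapped for all 7 genes. The interval of each share spans several percentage points, so differences of that size could not be seen at this depth.

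**Figure D2:**
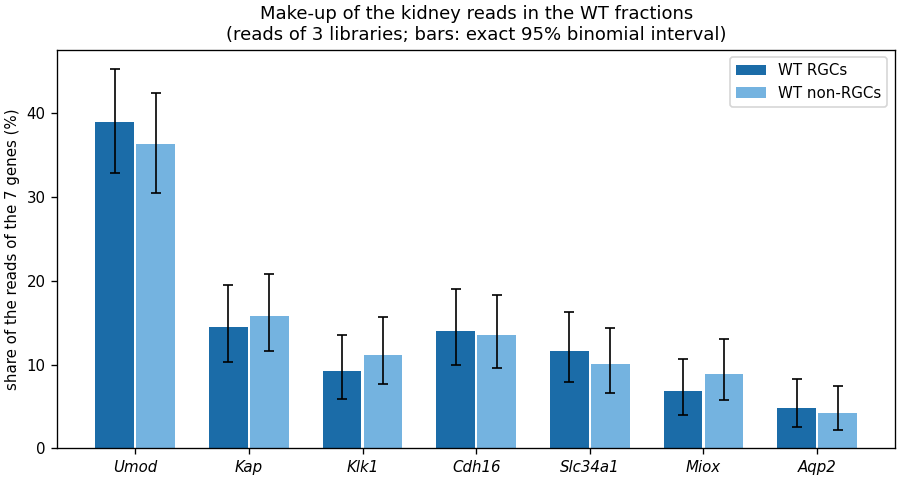
Share (y axis, percent) of each of the 7 transcripts other than Fxyd2 in their summed reads, in WT RGCs (249 reads) and WT non-RGCs (259 reads), each over 3 libraries; error bars are exact 95% binomial intervals. Each bar of a fraction lies within the interval of its partner in the other fraction, from Umod at 39.0% and 36.3% to Aqp2 at 4.82% and 4.25%.

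Compared per kilobase of annotated exon, Kap ranked first in both WT fractions, at 1.49 ± 0.870 RPM per kilobase (SD, n = 3) in RGCs and 1.66 ± 0.587 (SD, n = 3) in non-RGCs. In WT RGCs the level per kilobase of Kap, Fxyd2 (1.05 ± 0.143) and Umod (1.02 ± 0.178) overlapped between neighbours. Klk1 followed at 0.622 ± 0.0877 and overlapped neither Umod above nor Miox below. Miox (0.297 ± 0.0131), Cdh16 (0.268 ± 0.0606), Aqp2 (0.243 ± 0.0529) and Slc34a1 (0.181 ± 0.0381) overlapped with their neighbours. In WT non-RGCs the level per kilobase ran down in the order Kap, Umod (0.981 ± 0.0303), Klk1 (0.771 ± 0.169), Miox (0.397 ± 0.167), Fxyd2 (0.397 ± 0.0238), Cdh16 (0.267 ± 0.0310), Aqp2 (0.228 ± 0.147) and Slc34a1 (0.159 ± 0.0566). The libraries of Miox and Fxyd2, of Cdh16 and Aqp2 and of Aqp2 and Slc34a1 overlapped there. Fxyd2 thus moved from the second place in WT RGCs to the fifth in WT non-RGCs, while the order of the other 7 was the same. The exon length includes every annotated isoform, and for poly-A libraries the reads need not be spread evenly over it.

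A wider list of 119 kidney genes, from all segments and from the developing organ, asked whether kidney transcripts in general were lower in mKO. Only genes with a mean of at least 5 normalized reads over the 6 libraries of a fraction were tested, with limma on log2(normalized reads + 1) and Benjamini-Hochberg adjustment over all genes tested, and called at an adjusted p under 0.05 and a fold of at least 1.5. Of the 8 kidney transcripts above, 5 passed this filter in each fraction. Of the 119 genes, 59 were tested in RGCs, and 6 (10.2%) were lower and 3 (5.08%) higher in mKO, while 50 were not called. Over all 17066 genes tested in RGCs, 5.2% were called lower and 7.54% higher. In non-RGCs 55 were tested, and 3 (5.45%) were lower and 1 (1.82%) higher, with 51 not called, against 3.97% lower and 3.77% higher over all 16241 genes tested. The median log2 fold change of the tested kidney genes was 0.12 in RGCs and -0.10 in non-RGCs, beside 0.01 and -0.01 over all genes tested. With this filter the share of kidney genes called lower was thus above that of all genes in RGCs and close to it in non-RGCs. Most tested kidney genes were not called. The filter left 60 of the 119 genes untested in RGCs and 64 in non-RGCs. Without it the share called lower was 9.01% against 3.34% of all genes in RGCs, and 8.18% against 2.64% in non-RGCs.

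The largest change of the list in each fraction, among its tested genes, was that of Pck1. Pck1, the enzyme that commits cells to making glucose, had 13, 39 and 27 reads in WT RGCs and 1, 2 and 5 in mKO RGCs, and 31, 33 and 28 in WT non-RGCs against 0, 2 and 0 in mKO non-RGCs. Its log2 fold change (mKO over WT) was -3.12 in RGCs (standard error 0.573, limma adjusted p = 0.00607) and -4.42 in non-RGCs (standard error 0.526, limma adjusted p = 0.00478). Pck1 was lower in every mKO library than in any WT library of its fraction. Its WT level was 29.0 ± 14.7 normalized reads (SD, n = 3) in RGCs and 29.7 ± 2.03 (SD, n = 3) in non-RGCs. The fractions were normalized separately. The proximal tubule and the liver share this enzyme. Its call held in both fractions under each of 12 other settings, including the removal of the trend with GC content and the omission of any single library.

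Further calls named here were of smaller size. Pax2, a transcription factor of the early kidney and of the optic stalk, fell in both fractions, with a log2 fold change of -2.16 in non-RGCs (adjusted p = 0.0112 in limma, 11 to 46 reads in mKO against 113 to 146 in WT) and -0.66 in RGCs (adjusted p = 0.0311 in limma). Six2, which keeps nephron progenitors, fell in RGCs (log2 -1.17, adjusted p = 0.00506 in limma, 35 to 49 reads against 71 to 85). Ass1 of arginine synthesis fell in RGCs (log2 -0.84, adjusted p = 0.0130 in limma), as did Crym (log2 -0.63, adjusted p = 0.0151 in limma). Tmem27, a partner of amino acid transporters in the proximal tubule, rose by 1.00 in RGCs (adjusted p = 0.0106 in limma) and by 1.52 in non-RGCs (adjusted p = 0.0241 in limma). Acsm3 rose by 1.11 and Fut9 by 1.06 in RGCs (adjusted p = 0.0318 and 0.00404 in limma). With the trend of each library with GC content removed, the calls of Pax2 (log2 -0.06), Six2 (-0.61), Ass1 (-0.56), Acsm3 (0.81) and Fut9 (0.48) in RGCs and of Pax2 (-1.66, adjusted p = 0.0626 in limma) in non-RGCs were lost. Tmem27 had no GC value under this symbol, so its change in non-RGCs stayed at 1.52, and its call was lost by the adjusted p alone (0.0552 in limma). The calls of Pax2 and Crym in RGCs were lost when libraries were scaled to total reads. The calls of Pax2 and Acsm3 in RGCs were lost on leaving out any of 5 of the 6 libraries, that of Crym without WT library C (log2 -0.46), mKO library A or mKO library C, that of Tmem27 in RGCs without mKO library B, and that of Tmem27 in non-RGCs without WT library A or B or mKO library A or B. The count of lower genes in RGCs was 10 without WT library C, and that of higher genes was 1 without mKO library B. In non-RGCs the count of higher genes was 0 without WT library B, mKO library A or mKO library B.

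Among the kidney genes with the highest mean levels were some that neurons also use. Ret, a receptor for neurotrophic factors, had 2521 ± 24.2 normalized reads (SD, n = 3) in mKO and 3168 ± 579 in WT RGCs, and Ptpro, a phosphatase of podocytes and growing axons, had 1818 ± 17.9 and 1899 ± 247. Magi2, Podxl and Plce1 of podocytes and Ppp1r1a of the distal nephron were the other genes not called with the highest means in RGCs, with log2 fold changes of 0.12, -0.23, 0.11 and -0.44. In non-RGCs the genes not called with the highest means were Podxl, Crym, Ptpro, Magi2, Ret and Ppp1r1a, with log2 fold changes from -0.64 for Ret to -0.23 for Ppp1r1a.

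By segment, the genes of this list called lower without any filter on low values were all of the proximal tubule or the developing kidney. The list leaves out the 8 transcripts chosen for their fall, among them Umod of the loop of Henle, Klk1 of the distal segments and Aqp2 of the collecting duct, so the counts do not compare segments. This setting tested every gene with a read, and called 3.34% of 26516 genes lower in RGCs and 2.64% of 25379 in non-RGCs. Among kidney genes it called 10 of 111 (9.01%) lower in RGCs and 9 of 110 (8.18%) in non-RGCs. For proximal tubule metabolism these were 7 of 31 genes in RGCs and 6 of 30 in non-RGCs, and for proximal tubule transport 0 of 24 and 2 of 23. Of the loop of Henle and distal tubule genes 0 of 17 and 0 of 18 were lower, of the collecting duct genes 0 of 15 and 0 of 14, and of the glomerular genes 0 of 7 in both fractions. With the filter, limma and limma voom called 0 genes of these 3 lists lower, and at an unadjusted p under 0.05 limma had 1 loop of Henle gene lower in RGCs and 3 glomerular genes lower in non-RGCs. In the other direction, 3 loop of Henle genes were higher at that p in each fraction. Of these lists limma called 0 genes higher, and limma voom called 1 loop of Henle gene higher in non-RGCs. The median log2 fold change of the tested loop of Henle genes was 0.43 in RGCs and 0.39 in non-RGCs.

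The genes with few reads that this setting added were named after their values were seen. Fbp1, fructose bisphosphatase of glucose synthesis, had 9, 6 and 6 reads in WT RGCs and 8, 7 and 2 in WT non-RGCs. It had 0 reads in all 6 mKO libraries, and its WT level was 8.34-fold and 5.57-fold a floor of 3 mKO reads. Acsm2, an acyl-CoA synthetase of the proximal tubule, had 3, 5 and 6 reads in WT RGCs and 3, 5 and 7 in WT non-RGCs, against 1, 0 and 0 and 0, 0 and 0 in mKO. Gsta2 and Cyp2j5 had 10 and 9 reads over the WT RGC libraries and 10 and 13 over the WT non-RGC libraries, with 1 read of Cyp2j5 and none of Gsta2 over all mKO libraries. Slc22a6, the organic anion transporter, and Pdzk1ip1 were lower in non-RGCs, with 8 and 9 reads over the WT and 0 over the mKO libraries. In RGCs neither was called. There Slc22a6 had 1, 3 and 0 reads in WT and 0, 0 and 1 in mKO, and Pdzk1ip1 had 5, 3 and 3 against 0, 3 and 0. Slc12a1, the salt transporter that shares the thick ascending limb with Umod, is named for that reason after its values were seen. It had 7, 9 and 5 reads in WT and 2, 2 and 0 in mKO non-RGCs, but 1, 9 and 4 in WT and 3, 2 and 4 in mKO RGCs, where the genotypes overlapped, and it was not called in either.

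**Figure D3:**
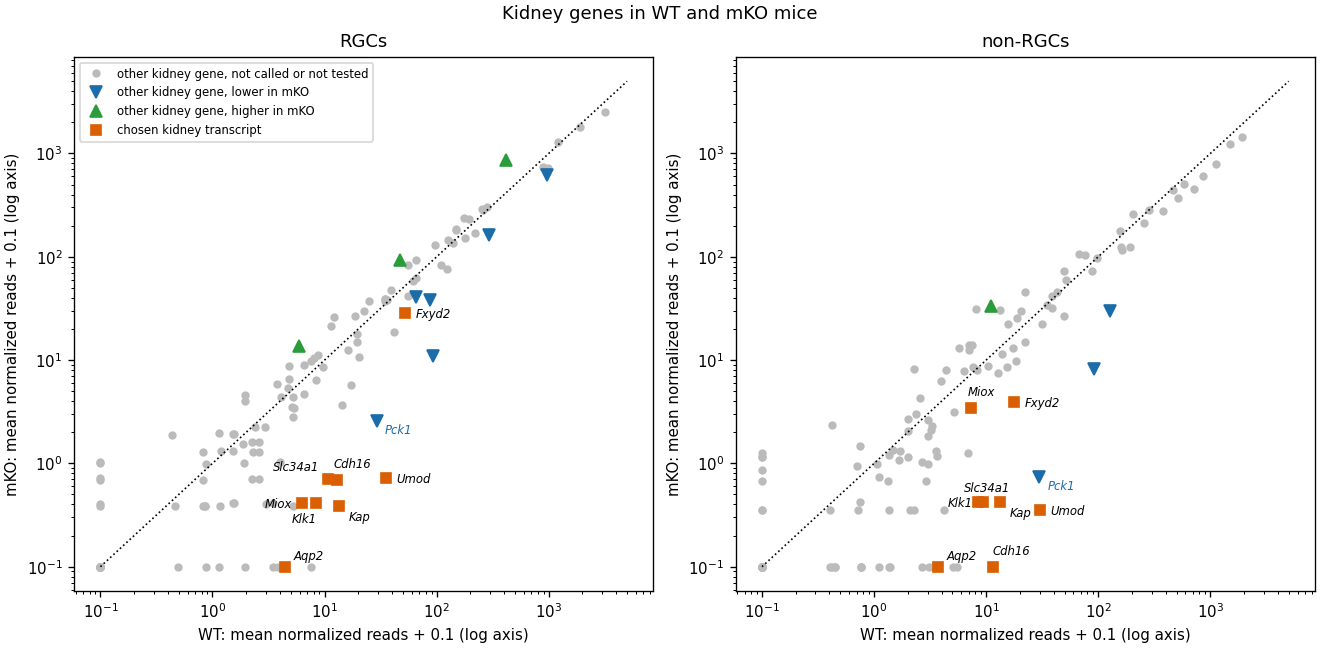
Mean normalized reads + 0.1 in WT (x axis) and mKO (y axis), both on log axes, of the 8 chosen kidney transcripts (squares) and 119 other kidney genes, in RGCs (left) and non-RGCs (right); the dotted line marks equal levels. Most other kidney genes lie along the line, Pck1 lies below it with the chosen transcripts, and Fxyd2 in RGCs and Miox in non-RGCs lie nearest to it of the squares.

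Genes of other organs were counted in the same way. Of 57 genes of liver, heart and skeletal muscle, lung, pancreas and gut, and testis, 17 were tested in RGCs with limma, and 0 were called, while 0 had an unadjusted p under 0.05 and limma voom called 0. Without the filter 1 of 44 was called higher and 0 lower in RGCs. In non-RGCs 9 were tested, 0 were called lower by limma or limma voom with 0 lower at an unadjusted p under 0.05, and Tnnt2, troponin T of heart muscle, rose by 1.58 on the log2 scale (adjusted p = 0.00841 in limma). In RGCs, 1 gene was called lower without WT library C, and 1 was called higher without WT library C and without WT library A. The 16 liver genes summed to 3.30 to 5.92 RPM in WT RGCs and 4.20 to 5.23 in mKO RGCs, and to 1.05 to 1.97 and 1.01 to 2.52 in non-RGCs, so that the genotypes overlapped in both fractions. The liver also expresses Pck1 and Fbp1. Of the 16 liver genes only 3 were tested in RGCs and 1 in non-RGCs. None of these was called or had an unadjusted p under 0.05 in limma or limma voom. The tissue that the Pck1 and Fbp1 reads came from was not tested.

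Markers of other cell types also differed between the genotypes. The summed level of 10 markers of the retinal pigment epithelium was 48.7 to 77.4 RPM in mKO and 25.0 to 35.4 in WT RGCs, and 188 to 216 in mKO and 37.5 to 68.9 in WT non-RGCs. Of the 9 tested, 4 rose in RGCs and 7 in non-RGCs, among them Tyr and Mlana of pigment cells in both fractions. Of 6 tested genes of red blood cells, 5 rose in both fractions, and the list of 8 summed to 25.0 to 30.7 RPM in mKO against 10.2 to 11.98 in WT RGCs, and to 57.8 to 86.6 against 12.7 to 20.1 in non-RGCs. Of 12 RGC markers, 8 rose in mKO non-RGCs (Thy1 by 3.86 on the log2 scale), and 5 did with the GC trend removed. In mKO RGCs 3 fell (log2 -0.73 for Thy1, -0.68 for Tubb3 and -0.63 for Pou4f1), and none of these stayed past the 1.5-fold threshold with the GC trend removed (-0.41, -0.27 and -0.57). Of the 12 markers, 1 other was called lower in mKO RGCs with the GC trend removed. It was Stmn2, at log2 -0.87 against -0.54 before, named after its values were seen. Markers of other retinal cells were also lower in mKO RGCs, with 4 of 10 called for photoreceptors, 4 of 10 for progenitors, among them Rax at log2 -0.87, and 3 of 8 for amacrine cells, among them Slc32a1 at -0.88, and 0 called higher in these lists. With the GC trend removed, 2, 1 and 0 were lower. In mKO non-RGCs 2 photoreceptor, 1 progenitor and 1 amacrine marker were lower, and 0, 0 and 0 with the GC trend removed. The rises of pigment epithelium markers numbered 1 in RGCs and 6 in non-RGCs with the GC trend removed, and those of red blood cell genes 5 and 5. Xist rose by 1.41 in mKO RGCs (adjusted p = 0.0225 in limma), a call that was lost with the GC trend removed (1.09, adjusted p = 0.0915 in limma), and Xist and the Y-linked gene Ddx3y had at least 191 reads in each of the 12 libraries. The part of these differences in the levels of the kidney transcripts was not tested.

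**Figure D4:**
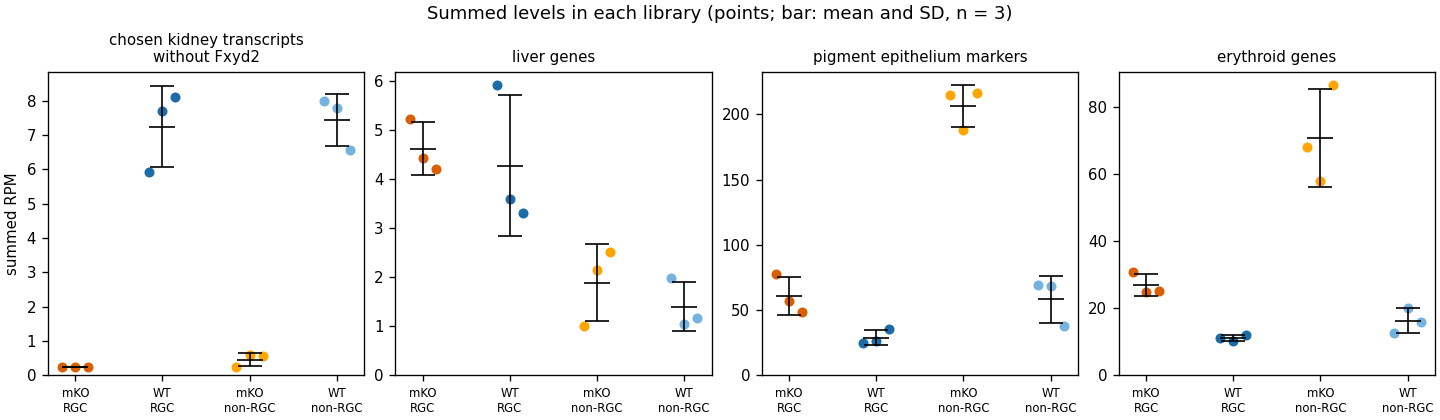
Summed RPM (y axes, linear from 0) of the 7 kidney transcripts without Fxyd2, 16 liver genes, 10 pigment epithelium markers and 8 genes of red blood cells in each library (points) with mean and SD of 3 libraries (bars). The kidney sum is 5.92 to 8.11 in WT and at most 0.583 in mKO libraries, the liver sums overlap between genotypes, and the other sums are higher in mKO.

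Few genes met fixed read limits for presence in every WT and near absence in every mKO library. With at least 3 reads in each of the 6 WT libraries and at most 2 in each of the 6 mKO libraries, a rule set after the values were seen, 9 of 27570 genes with reads were found (0.0326%). They were the 5 kidney transcripts Umod, Kap, Klk1, Cdh16 and Slc34a1, together with Acsm2, Mep1a, S100g and mt-Nd3. The 5 had been chosen for their fall in mKO, so nothing is read from their place here. The count also depends on the limits, since Pck1 missed them by 5 reads in mKO RGC library C. Fbp1 missed them by having only 2 reads in WT non-RGC library C. Mep1a, a protease of the brush border of kidney and gut, had 5, 8 and 5 reads in WT RGCs, 6, 6 and 3 in WT non-RGCs and 0 in all 6 mKO libraries. S100g, the calcium-binding protein calbindin-D9k of kidney and gut, had 4, 4 and 8 reads in WT RGCs and 9, 3 and 3 in WT non-RGCs, against 0, 0 and 0 and 2, 0 and 1 in mKO. Of mt-Nd3, a gene of the mitochondrial genome, there were 7, 6 and 5 reads in WT RGCs and 5, 7 and 5 in WT non-RGCs, and 1, 2 and 0 and 0, 0 and 0 in mKO. The reverse rule, with reads in every mKO and almost none in any WT library, found 32 genes (0.116%), of which 21 are predicted genes named Gm and a number and 0 are on the kidney lists.

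The 10 genes whose profile over the 12 libraries correlated most with the summed level of the 8 transcripts were on none of the kidney lists. In mKO RGCs Fxyd2 made up 2.46 of the 2.69 RPM of this sum, so its shape there is that of Fxyd2. A correlation also does not weigh the size of a change, so it does not tell whether kidney genes fell alike. On log2(RPM + 0.1), and among 18633 other genes with at least 30 reads, the highest Pearson correlations were those of Sppl2b (r = 0.983), Irf2bpl (0.979), Nlgn2 (0.974), Scrt2 (0.974), Zc3h7b (0.974), Irx5 (0.972), Ipo13 (0.969), Lrp3 (0.967), Gnas (0.966) and Fasn (0.961). These correlations are descriptions, since the 12 points fall into a WT and an mKO cluster and share their libraries and depth. The 10 genes were abundant, with at least 246 reads in each library, and their WT to mKO ratios were 1.21 to 1.84 in RGCs and 1.304 to 2.20 in non-RGCs. Their exons had a GC content of 55.5% to 65.4%.

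The GC content of the 8 kidney transcripts ranged from 42.9% for Kap to 63.2% for Aqp2. With the trend of each library with GC content removed, the differences of the transcripts that passed the filter, which most of them passed through their WT level, were as follows. On log2(normalized reads + 1), a scale that understates differences of low genes, Umod went from -4.67 to -4.53 in RGCs and from -4.70 to -4.58 in non-RGCs, and Kap from -3.35 to -3.60 and from -3.45 to -3.59. Cdh16 went from -3.14 to -2.80 in RGCs and from -3.62 to -3.35 in non-RGCs, and Slc34a1 from -2.89 to -2.61 in RGCs. Fxyd2 went from -0.87 to -0.65 in RGCs and from -1.98 to -1.81 in non-RGCs, and Miox from -0.97 to -0.77 in non-RGCs.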

How the data were processed

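Poly-A RNA-seq was done on RGCs and on non-RGCs of mKO and WT pups at P0, in 3 libraries per group. STAR (2.3.1z4 in the submitters' processing notes) was used by the authors to map the reads, which are single-end, to mm10, featureCounts to count them and DESeq to normalize them, and the file labels speak of primary alignments and removed duplicates. The deposited signal values are the authors' means, per genotype, of gene counts divided by size factors. The other deposited columns hold the authors' comparisons (fold changes and p-values), which were not used, and 0 columns of per-sample values were left out. Groups came from the sample titles.

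Each mean adds up the whole reads of 3 libraries, weighted by what 1 read is worth, so reads per library were recovered from the 15 printed digits. Exactly 1 solution was found for 100% of genes with reads in each group, and for 0 of 1000 genes with a shifted step as a control. On simulated means, 4849 of 4849 genes came back exactly for mKO RGCs and 4839 of 4843 for WT non-RGCs, the lowest of the groups. The recovered libraries were tied to a group but not to a replicate label. Each fraction was fitted separately with limma (3.58.1, mean-variance trend, two-sided, no covariate) on log2(reads divided by size factor + 1), with a minimum of 5 for a gene's mean and Benjamini-Hochberg adjustment. DESeq, the study's own test, was not run on the recovered reads, and limma voom was the alternative that used them. On simulated RGC libraries of 17059 genes, limma recovered 83 of 100 genes changed 4-fold with a mean under 50 and 100 of 100 above, with 6 false calls. On simulated non-RGC libraries of 16258 genes these were 93, 100 and 11. The simulation gave every gene the same dispersion, and its libraries differed beyond the change only by depth. Its false calls can therefore understate those in these data. With 3 against 3 libraries the smallest exact permutation p is 0.1, so none was run. Replicates were separate RNA extractions, and p-values cover only the spread between them.

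The 8 transcripts and the gene lists were chosen with earlier results of these data known. Genes named are the 8 transcripts, up to 12 called and 6 not called genes of the other kidney lists per fraction, up to 3 called genes of each other list, the 10 genes with the most similar profile, Ezh2, and paralogues; other names were chosen after their values were seen and are marked so. The counts of the kidney and photoreceptor lists each include 1 called gene whose values are not reported here. Ratios of pooled reads have exact (Clopper-Pearson) 95% intervals. GENCODE M21 on GRCm38 gave gene positions, exon bases and GC content, and held 91.9% of the 38720 table symbols, and RefSeq gave the promoters. Alternatives were another pseudocount (0.5), another filter (10 or more as the mean of either group) and none, scaling to total reads, limma voom, removal of the GC trend (lowess over 0.3 of genes with a mean of at least 50), and leaving out each library. Python 3.11.15 with numpy 2.4.6, pandas 2.3.3 and scipy 1.17.1, and R 4.3.3 were used.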

Additional observations from a re-analysis of the deposited data

How the results depend on the processing

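The summed level of the 8 transcripts, chosen for being lower in mKO, was recomputed with scaling to total reads and without each library. On log2 its mKO to WT ratio was -2.21 in RGCs (-2.09 scaled to total reads, -2.29 to -2.14 without a library) and -3.59 in non-RGCs (-3.42, and -3.79 to -3.41). Kidney genes called lower in RGCs numbered 6, against 3 with the GC trend removed, 10 without a filter and 4 to 10 without a library, and those called higher 3, against 6 scaled to total reads, where 4 were lower, and 1 to 4 without a library. In non-RGCs 3 were lower, against 2 with the GC trend removed, 9 without a filter and 3 to 4 without a library. Of all 16241 genes tested there, 79 were lower with the GC trend removed. In that fraction 1 kidney gene was higher, against 0 with the GC trend removed, 2 with limma voom, 2 scaled to total reads and 0 to 1 without a library. Genes of other organs called higher in RGCs went from 0 to 1 without a filter and to 0 to 1 without a library, and those called lower to 0 to 1. More kidney genes were thus lower than higher in RGCs, while 4 were lower and 6 higher when scaled to total reads. With the GC trend removed 3 were lower and 3 higher. Fewer of all genes tested were lower in these settings too. They numbered 373 of 17103 scaled to total reads and 262 of 17066 with the GC trend removed, against 888 of 17066 before. The counts of kidney genes alone therefore do not show that they came closer to the share of all genes. The sign of each called kidney gene named stayed under every alternative. Causes of these shifts were not tested.

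Scaling to total reads moved the median log2 fold change of all genes from 0.01 to 0.13 in RGCs and from -0.01 to 0.16 in non-RGCs, and the share of called genes that were higher from 59.2% (888 lower, 1287 higher) to 84.3% (373 and 2000) and from 48.8% (644 and 613) to 81.5% (261 and 1147). With the GC trend removed 262 were lower and 478 higher in RGCs, and 79 and 159 in non-RGCs. No paired analysis was possible because the recovered libraries carry no replicate number. The low read numbers of the kidney transcripts limit their ratios, which have wide intervals.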
